A study of Arabidopsis thaliana with 42 samples.

Results

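This account concerns 112 Arabidopsis genes whose transcript level varied at least 3-fold over the day in the link1link2 double mutant and less than 2-fold in wild-type seedlings. They were chosen from the long-day libraries by a fixed rule: a link1link2 daily maximum of at least 10 CPM (counts scaled to the library total), a daily range R of at least 3 in link1link2 and a range under 2 in wild type. R is the highest of the 6 time-point means divided by the lowest, each with 0.5 CPM added. Of 33602 loci in the table, 14524 had a link1link2 maximum of at least 10 CPM, and the 112 members were 0.771% of those. The same rule with the genotypes exchanged, for genes whose daily range was lost in the mutant, found 109 genes.

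RNA was sequenced from seedlings of link1link2 and of wild type, both in the Col-0 ecotype, grown on MS medium at 22 °C. Long days had 16 h of light and 8 h of darkness. Collection began 2 h into the light (ZT2, where ZT is the time since lights on) and was repeated at intervals of 4 h until ZT22, so that ZT18 and ZT22 fell in the dark. Each genotype had 3 libraries at each time. A separate experiment in continuous light had 3 libraries per genotype. Per the labels seedlings of both experiments were 9 days old, although the design text gives a longer growth time for continuous light. The labels call the mutated genes LINK1 and LINK2, which were taken to be LNK1 (AT5G64170) and LNK2 (AT3G54500), and do not describe the alleles. Libraries are named by the letters A, B and C of their columns, and no label says whether they came from separate cultures, so spreads and p-values measure only the variation between these libraries, which may be technical.

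LNK1 and LNK2 are light-induced genes whose proteins act as transcriptional coactivators together with MYB-like clock factors of the REVEILLE family. The plant clock and the light and dark phases together give many transcripts a daily rhythm, including genes of photosynthesis, of starch use and of growth. Genes for the breakdown of amino acids are known as a class that rises in darkness when sugar runs short, and genes for DNA synthesis are transcribed in waves with the cell cycle.

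As a check of the labels, LNK2 had 13.1, 10.2 and 11.0 CPM in link1link2 at ZT2, against 628, 700 and 673 CPM in wild type, and 16.2, 17.1 and 16.7 CPM in link1link2 in continuous light, against 143, 141 and 140 CPM in wild type. At ZT18, near the wild-type minimum, the order was the other way, with 27.1, 30.3 and 31.3 CPM in link1link2 and 8.10, 9.58 and 6.51 CPM in wild type. LNK1 had 68.3, 71.8 and 72.2 CPM in link1link2 at ZT2, against 225, 235 and 231 CPM in wild type, and here too the order was the other way at ZT14, ZT18 and ZT22, with 29.6, 23.4 and 25.8 CPM in link1link2 at ZT14, against 5.36, 5.62 and 3.71 CPM in wild type. Total counts ran from 7259559 to 13576565 per long-day library and from 11448934 to 14911921 in continuous light. In 4 long-day libraries more than 2% of counts came from the chloroplast genome: link1link2 ZT2 C, link1link2 ZT22 A and C, and wild-type ZT10 B.

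Promoters of members show which regulatory letters lie next to the genes described. Each window runs from 250 bases before to 50 bases after the annotated gene start, read 5′ to 3′ on the strand of the gene from the RefSeq TAIR10.1 genome. The first 4 belong to genes of DNA synthesis that were highest at ZT2 in link1link2, and the capitals mark a site of the E2F family of cell-cycle factors. RPA70B also carries, near its end, the short site bound by the dawn factor CCA1. The E2F letters, and MCM2, MCM3 and MCM6 as genes to print, were chosen after the values of these genes had been seen.

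RPA70B, chr5:2571707-2572006 (plus strand): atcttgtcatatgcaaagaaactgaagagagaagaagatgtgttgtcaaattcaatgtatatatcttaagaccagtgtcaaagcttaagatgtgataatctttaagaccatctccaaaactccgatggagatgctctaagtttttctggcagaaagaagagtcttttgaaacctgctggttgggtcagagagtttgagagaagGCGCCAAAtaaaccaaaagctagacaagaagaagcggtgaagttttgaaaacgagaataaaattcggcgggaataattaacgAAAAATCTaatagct
MCM2, chr1:16969964-16970263 (plus strand): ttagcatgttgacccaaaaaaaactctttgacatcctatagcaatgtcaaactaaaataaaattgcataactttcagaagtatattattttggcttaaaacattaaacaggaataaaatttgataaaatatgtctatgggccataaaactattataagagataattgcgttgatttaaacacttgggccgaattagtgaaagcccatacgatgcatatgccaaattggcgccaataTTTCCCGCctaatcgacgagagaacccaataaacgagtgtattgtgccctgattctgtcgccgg
MCM3, chr5:18773657-18773956 (minus strand): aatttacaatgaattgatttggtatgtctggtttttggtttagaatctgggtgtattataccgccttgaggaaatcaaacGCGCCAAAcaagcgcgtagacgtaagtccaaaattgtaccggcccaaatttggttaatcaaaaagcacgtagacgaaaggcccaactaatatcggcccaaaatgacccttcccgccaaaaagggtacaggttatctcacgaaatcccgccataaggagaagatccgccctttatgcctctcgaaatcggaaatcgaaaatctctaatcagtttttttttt
MCM6, chr5:18010618-18010917 (minus strand): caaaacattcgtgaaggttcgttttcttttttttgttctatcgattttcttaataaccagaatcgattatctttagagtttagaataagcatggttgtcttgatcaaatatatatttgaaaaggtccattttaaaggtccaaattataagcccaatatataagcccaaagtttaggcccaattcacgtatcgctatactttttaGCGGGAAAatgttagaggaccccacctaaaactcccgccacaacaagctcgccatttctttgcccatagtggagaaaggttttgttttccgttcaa

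The next 3 belong to genes from other classes. The capitals mark an abscisic-acid response element (ABRE) in BCAT-2, the member with the largest range, and the evening element, a site of clock MYB factors, in CYP79B2 and EARLI1.

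BCAT-2, chr1:3287837-3288136 (plus strand): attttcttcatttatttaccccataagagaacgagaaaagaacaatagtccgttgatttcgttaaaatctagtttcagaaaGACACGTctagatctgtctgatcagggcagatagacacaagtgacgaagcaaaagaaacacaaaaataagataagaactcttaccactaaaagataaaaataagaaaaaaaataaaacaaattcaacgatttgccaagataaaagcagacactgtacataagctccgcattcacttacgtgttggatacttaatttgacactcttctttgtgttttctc
CYP79B2, chr4:18524792-18525091 (plus strand): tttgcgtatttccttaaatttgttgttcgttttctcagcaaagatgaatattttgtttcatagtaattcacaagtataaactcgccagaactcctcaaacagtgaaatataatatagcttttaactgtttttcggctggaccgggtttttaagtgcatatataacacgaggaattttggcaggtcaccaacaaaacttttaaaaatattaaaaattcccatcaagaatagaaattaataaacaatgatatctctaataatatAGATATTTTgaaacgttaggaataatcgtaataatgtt
EARLI1, chr4:7406945-7407244 (minus strand): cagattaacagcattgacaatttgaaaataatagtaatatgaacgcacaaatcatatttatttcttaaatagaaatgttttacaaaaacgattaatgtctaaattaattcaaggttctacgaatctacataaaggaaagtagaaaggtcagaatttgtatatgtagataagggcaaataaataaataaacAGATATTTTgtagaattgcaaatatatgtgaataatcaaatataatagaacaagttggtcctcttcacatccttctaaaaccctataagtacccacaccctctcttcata

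Across the 112 members the median R was 3.43 in link1link2 (3.01 to 30.6) and 1.84 in wild type (1.44 to 2.00). These values chose the members and are given as a description. Over all 14524 measured genes the median R was 1.68 in link1link2 and 1.66 in wild type, and 1677 genes of at least 10 CPM had a range of at least 3 in link1link2, against 1510 in wild type. Most members lay near the edges of the rule: 61 had a link1link2 R under 3.5, and 68 had a wild-type R of at least 1.8. Only 3 members had a link1link2 R of at least 10, namely BCAT-2 (30.6), AT1G19530 (20.05) and CYP82C2 (13.7). In 53 members the link1link2 range was at least 2 times the wild-type range.

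Just inside the limit on the link1link2 range were BCDH BETA1, AT1G14640, OPT4, BLH6 and AT1G20890, with R of 3.01 to 3.04, and just outside it CYP81F2, AT4G01000, OLI2, AT1G74460 and ATG8F, with R of 2.98 to 3.00. The wild-type limit passed between AT1G55990, ROF1, CYP83B1, AT1G69610 and UGE3 inside (R of 1.99 to 2.00) and LTP3, GSTF6, PER4, PRL and AT4G24275 outside (2.00 to 2.01). At the level limit AT1G33260, AT1G26240, AT4G13990, AT1G69610 and AT1G14640 were inside, with maxima of 10.04 to 10.8 CPM, and AT1G20720, AT1G06100, AT5G67430, NAC042 and scpl28 outside, with 9.04 to 9.75 CPM.

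**Figure D1:**
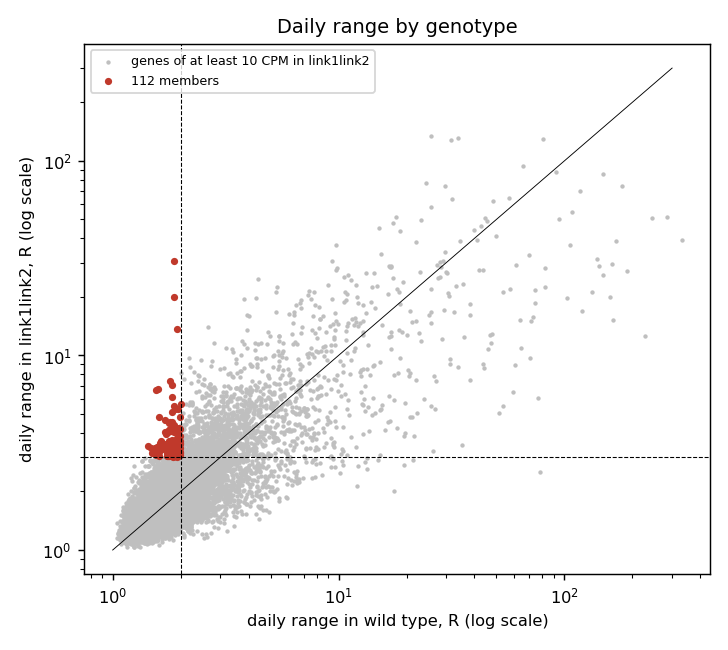
Daily range R in link1link2 (y axis, log scale) against wild type (x axis, log scale) for each gene with a link1link2 maximum of at least 10 CPM (grey) and for the 112 members (red); the dashed lines are the limits of 3 and 2 and the solid line marks equal ranges. The members fill the corner where the grey cloud passes both limits, and 3 of them stand above an R of 10.

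Which genes met the rule depended strongly on how libraries were scaled. With TMM factors, which correct for the composition of each library, in place of column totals, 119 genes met the rule and only 55 of them were among the 112. Of the members, 39 then had a wild-type R of at least 2 and 17 fell below 3 in link1link2. All 112 still had the larger range in link1link2: the lowest link1link2 R was 2.73 and the highest wild-type R was 2.36. With column totals the median over genes of the log2 ratio of ZT2 to ZT18 was -0.15 in link1link2 and -0.27 in wild type, and with TMM factors it was -0.04 in link1link2 and -0.01 in wild type. Without the 4 libraries rich in chloroplast counts, 92 members met the rule, and all 112 again had the larger range in link1link2. In that setting the link1link2 mean at ZT22 rested on library B alone. With all libraries, 47 members had their link1link2 minimum at ZT22 and 27 their maximum. When each of the 36 long-day libraries was left out in turn, 46 members met the rule every time, and at least 92 did in each case. Only 30 members met it both with TMM factors and each time a library was left out.

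As a description, since the rule used the same values, in all 112 members every link1link2 library at the highest time lay above every link1link2 library at the lowest time, as was so for 96.2% of genes of at least 10 CPM in any group.

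Time of day divided the members into genes that dropped at night and genes that rose at night in link1link2. The link1link2 maximum fell at ZT2 in 33 members, at ZT6 in 16, at ZT10 in 17, at ZT14 in 4, at ZT18 in 15 and at ZT22 in 27. The minimum fell at ZT22 in 47 and at ZT18 in 22. Among the 119 genes that met the rule with TMM factors, 21 were highest at ZT2 and 27 at ZT6. Without the 4 libraries rich in chloroplast counts, 44 genes were highest at ZT22, where link1link2 then had library B only. Thus 42 members had their highest and 69 their lowest link1link2 mean in the dark, and 111 had one or the other there, with column totals and with TMM factors alike. Of the 1677 genes with a link1link2 range of at least 3, 93.0% had an extreme in the dark, so this share is not particular to the members. In the genes of the exchanged rule the wild-type maximum fell most often at ZT10 (42 of 109) and the wild-type minimum at ZT2 (48 of 109).

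**Figure D2:**
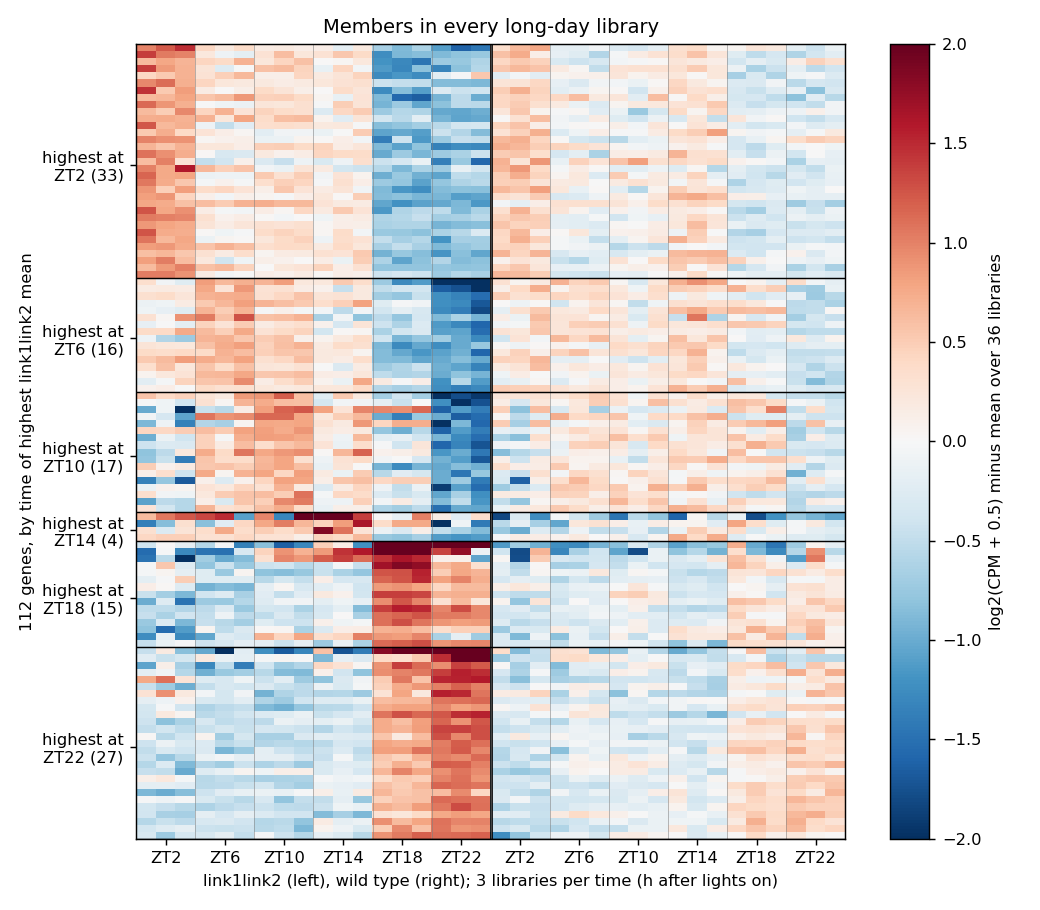
Each row is 1 of the 112 members and each column 1 long-day library, link1link2 on the left and wild type on the right, in time order with 3 libraries per time; colour gives log2(CPM + 0.5) minus the mean of the gene over the 36 libraries, and colours saturate at 2 in either direction. In link1link2 the genes highest at ZT2, ZT6 and ZT10 are low at ZT18 or ZT22 and the genes highest at ZT18 and ZT22 are high there, while the wild-type columns are pale throughout.

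The gained range lay on different sides of the wild-type range in the different classes. In 32 members the link1link2 maximum was at least 1.5 times the wild-type maximum while the minima were closer than that, in 44 the link1link2 minimum was at least 1.5 times below the wild-type minimum, in 6 both held and in 30 neither did. Deeper minima prevailed among genes highest at ZT6 (12 of 16) and ZT10 (14 of 17), and higher maxima among genes highest at ZT18 (10 of 15) and ZT22 (16 of 27). In the ZT2 class 16 of 33 passed neither limit and 14 had the deeper minimum. Maximum and minimum both moved a little in that class, with median ratios of 1.31 for the maximum (link1link2 over wild type) and 1.44 for the minimum (wild type over link1link2). The maximum came at the same time in both genotypes in 62 members, among them 27 of 33 in the ZT2 class but 3 of 16 in the ZT6 class.

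**Figure D3:**
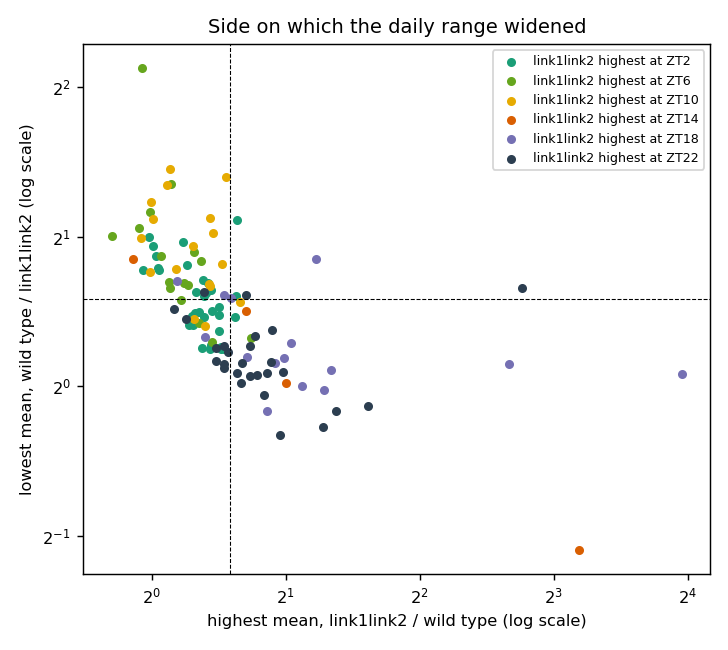
For each member, the ratio of the daily maxima, link1link2 over wild type (x axis, log scale), against the ratio of the daily minima, wild type over link1link2 (y axis, log scale), coloured by the time of the link1link2 maximum; dashed lines mark 1.5. Genes highest at ZT6 and ZT10 spread upward, with deeper link1link2 minima, and genes highest at ZT18 and ZT22 spread to the right, with higher link1link2 maxima.

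At single times the departures from wild type were largest at night. At ZT18, 12 members were at least 2-fold higher in link1link2 (background 1.13% of genes of at least 10 CPM) and 4 at least 2-fold lower (background 0.869%). At ZT22, 10 were higher (background 0.842%) and 17 lower (background 1.86%). At ZT2, 2 were higher (background 0.445%) and 2 lower (background 0.458%), and at ZT6 1 was higher (background 0.734%). At ZT10 4 were higher (background 1.68%) and at ZT14 5 (background 1.14%), and no member was 2-fold lower at ZT6 (background 1.21%), ZT10 (background 1.45%) or ZT14 (background 0.633%). In 86 members all link1link2 libraries lay above wild type at some time and below it at another (background 39.5%). The rule used all these values, so the shares are descriptions.

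One group among the genes that rose at night breaks down branched-chain amino acids and lysine. This group of 15 genes was written down after the members had been seen. Of 14 measured, 5 were members, 12 had the larger range in link1link2, and the median R was 3.296 in link1link2 and 1.86 in wild type. For the 5 members the rule fixed this order, and their values enter the medians. Among all 14524 measured genes, 7705 had the larger range in link1link2 with column totals and 9053 with TMM factors. With TMM factors 3 of the 5 still met the rule, and the medians were 3.04 in link1link2 and 1.67 in wild type. The larger range was then in link1link2 in 10 of 14, a share not far above that of all genes.

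BCAT-2 (AT1G10070), a branched-chain amino acid transaminase, had 48.4, 55.9 and 77.6 CPM in link1link2 at ZT18, against 7.20, 1.81 and 1.19 CPM in wild type. At ZT10 it had 2.09, 0.992 and 1.40 CPM in link1link2 and 2.095, 3.24 and 2.56 CPM in wild type. The genotypes were thus far apart in the dark and close in the afternoon, and no wild-type mean of the day exceeded 3.43 CPM. At this level single libraries decided the wild-type range. BCAT-2 left the rule without wild-type ZT6 library C, ZT18 library B or C, or ZT22 library A. BCE2 (AT3G06850), the acyltransferase subunit of the branched-chain oxoacid dehydrogenase, had 63.2, 72.6 and 69.2 CPM in link1link2 at ZT18, against 31.6, 28.6 and 26.7 CPM in wild type. At ZT2 it had 16.7, 16.8 and 15.9 CPM in link1link2 and 19.0, 20.6 and 17.0 CPM in wild type, so it was higher in link1link2 in the night and slightly lower after dawn.

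AT4G33150, the bifunctional lysine-ketoglutarate reductase and saccharopine dehydrogenase that starts lysine breakdown, had 74.8, 79.4 and 94.8 CPM in link1link2 at ZT18, against 38.4, 31.6 and 26.5 CPM in wild type. At ZT10 it had 22.3, 25.7 and 23.6 CPM in link1link2 and 28.3, 29.0 and 29.4 CPM in wild type. ETFQO, which passes electrons from these reactions to the respiratory chain, averaged 43.9 CPM in link1link2 and 21.5 CPM in wild type at ZT18, and 13.5 CPM in link1link2 and 15.1 CPM in wild type at ZT2. BCDH BETA1, another dehydrogenase subunit, averaged 23.2 CPM in link1link2 and 10.9 CPM in wild type at ZT22. In each of these genes the night libraries of link1link2 lay above all wild-type libraries of the same time.

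Some other genes of the pathway had a similar night rise but too large a wild-type range for the rule. MCCA, a subunit of methylcrotonyl-CoA carboxylase, had an R of 9.42 in link1link2 and 2.74 in wild type and averaged 167 CPM in link1link2 and 44.7 CPM in wild type at ZT18. R was 6.80 in link1link2 and 2.71 in wild type for the dehydrogenase subunit DIN4, and 5.04 in link1link2 and 2.04 in wild type for IVD, isovaleryl-CoA dehydrogenase. AT2G26800, another gene of the group, went the other way, with an R of 1.79 in link1link2 and 2.49 in wild type. ETFALPHA, ETFBETA and D2HGDH, also of the group, overlapped between the genotypes at ZT18. At ZT22 ETFALPHA and ETFBETA were higher in every link1link2 library, and D2HGDH again overlapped. AT5G09300 of the group was lower at ZT18, with 8.86, 6.24 and 7.25 CPM in link1link2 and 9.68, 10.6 and 9.88 CPM in wild type. The list of sugar-starvation markers, which holds BCAT-2 as its only member, had a median R of 7.05 in link1link2 and 3.64 in wild type over 13 measured genes. In this list 12 genes had the larger range in link1link2, against 7705 of all 14524 measured genes. Its best-known gene ASN1, an asparagine synthetase, averaged 243 CPM in link1link2 and 15.4 CPM in wild type at ZT18, but 11.6 CPM in link1link2 and 64.8 CPM in wild type at ZT6.

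**Figure D4:**
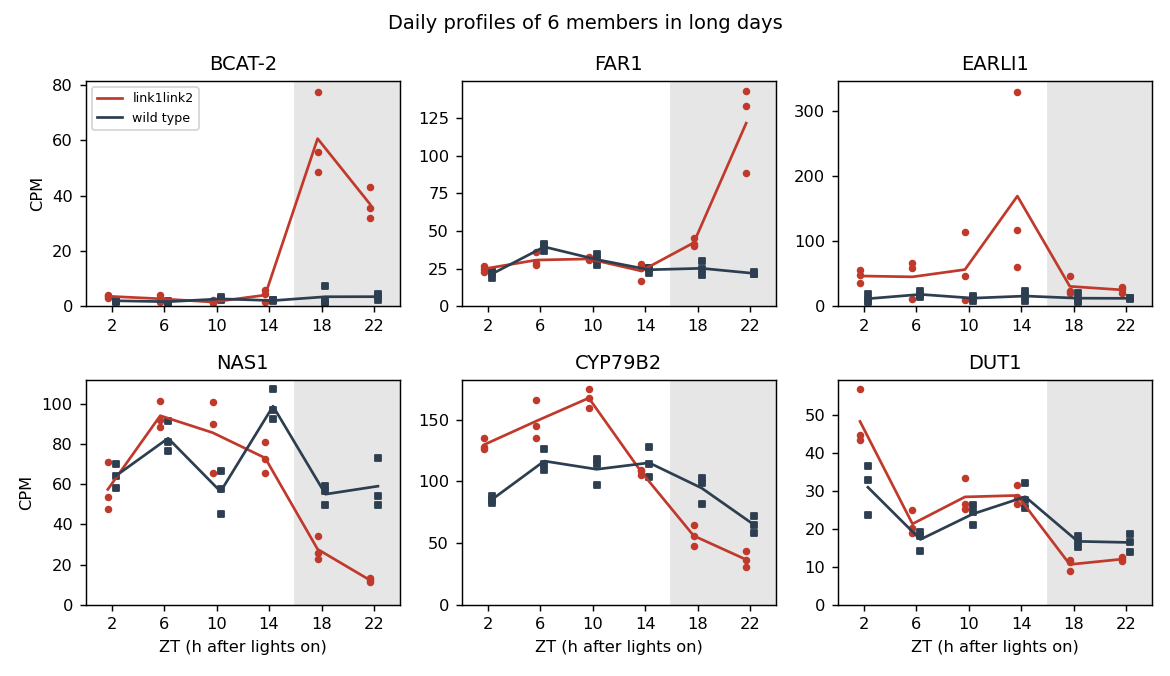
CPM (y axis) of 6 members over the long day (x axis, h after lights on; grey, dark) in link1link2 (red circles) and wild type (dark squares); points are libraries and lines join the means of 3. BCAT-2 and FAR1 are high in link1link2 only at ZT18 or ZT22, EARLI1 varies widely between link1link2 libraries at ZT14, and NAS1, CYP79B2 and DUT1 are lower in link1link2 than in wild type at ZT18 and ZT22.

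The other genes highest at ZT18 in link1link2 ranged over several functions. CYP82C2, a cytochrome P450 of indolic defence metabolism, had 10.0, 10.8 and 13.4 CPM in link1link2 at ZT18, against 1.69, 0.426 and 0.217 CPM in wild type, and every wild-type mean of the day was at most 1.37 CPM. At levels this low single libraries decided its wild-type range: it left the rule in 7 of the 36 cases in which 1 library was left out. BGAL1, a beta-galactosidase of the cell wall and the most abundant member of this class, had 553, 554 and 531 CPM in link1link2 at ZT18, against 226, 215 and 161 CPM in wild type, and 154, 131 and 113 CPM in link1link2 at ZT2, against 158, 148 and 148 CPM in wild type. GDPD2, a glycerophosphodiester phosphodiesterase, had 74.8, 84.5 and 79.6 CPM in link1link2 at ZT18, against 36.9, 31.5 and 25.0 CPM in wild type. All 3 genes were separated completely at ZT18, and BGAL1 overlapped between genotypes at ZT2. RAP2.10, an AP2/ERF transcription factor gene, averaged 22.5 CPM in link1link2 and 10.7 CPM in wild type at ZT18.

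Genes highest at ZT22 included a lipid enzyme and genes of auxin and light signalling. FAR1, a fatty acid reductase that makes the primary alcohols of suberin, had 88.9, 144 and 133 CPM in link1link2 at ZT22, against 22.9, 21.3 and 21.2 CPM in wild type, while at ZT14 it had 16.7, 28.0 and 25.7 CPM in link1link2 and 25.2, 25.3 and 22.2 CPM in wild type. IAA2, an auxin-induced Aux/IAA repressor, had 123, 144 and 151 CPM in link1link2 at ZT22, against 51.6, 57.6 and 50.5 CPM in wild type. At ZT6 the order of IAA2 was reversed, with 35.3, 36.8 and 39.8 CPM in link1link2 and 50.5, 61.3 and 58.97 CPM in wild type. GATA2, a transcription factor of seedling development in light, averaged 20.6 CPM in link1link2 and 11.9 CPM in wild type at ZT22.

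UGE3, which interconverts UDP-glucose and UDP-galactose, averaged 19.0 CPM in link1link2 and 10.0 CPM in wild type at ZT22, and KTI1, a Kunitz trypsin inhibitor, 170.2 CPM in link1link2 and 86.0 CPM in wild type. BAM4, a beta-amylase family protein needed for normal starch breakdown, averaged 40.4 CPM in link1link2 and 25.2 CPM in wild type at ZT22 and had its minimum at ZT6 in link1link2. With TMM factors FAR1 and IAA2 had wild-type ranges of 2.17 and 2.16, KTI1 one just above 2, and BAM4 a link1link2 range of 2.84, so these 4 no longer met the rule. Only 9 of the 27 genes highest at ZT22 met it under that scaling, against 12 of the 15 highest at ZT18.

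Genes of DNA synthesis were frequent among the 33 members highest at ZT2. A group of 22 replication genes, written down after the members had been seen, held 8 members among 20 measured. All 20 had the larger range in link1link2, and the median R was 2.95 in link1link2 and 1.83 in wild type. For the 8 members the rule fixed this order, and their values enter the medians. Among all 14524 measured genes, 7705 had the larger range in link1link2 with column totals and 9053 with TMM factors. With TMM factors all 20 again had the larger range in link1link2, at medians of 3.21 in link1link2 and 2.15 in wild type. Only 1 of the 8 members, ETG1, then met the rule, since the wild-type ranges of the others exceeded 2. Without the 4 libraries rich in chloroplast counts all 8 met it, but without link1link2 ZT2 library A 4 of them, MCM2, MCM3, ETG1 and POLA3, did not. That library stood above the other two in these genes: MCM3 had 54.8, 38.1 and 37.6 CPM and ETG1 33.5, 21.9 and 22.9 CPM in link1link2 libraries A, B and C at ZT2.

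DUT1, a dUTP pyrophosphatase that keeps uracil out of DNA, had 56.9, 44.7 and 43.4 CPM in link1link2 at ZT2, against 32.8, 36.5 and 23.7 CPM in wild type. At ZT18 it had 8.86, 11.3 and 11.7 CPM in link1link2 and 18.1, 15.1 and 16.9 CPM in wild type. Its link1link2 libraries were therefore all above wild type in the morning and all below at night. PCNA1, the sliding clamp of DNA polymerase, showed the same order, with 43.6, 36.4 and 32.3 CPM in link1link2 at ZT2, against 26.3, 28.1 and 24.5 CPM in wild type, and 10.0, 11.7 and 9.23 CPM in link1link2 at ZT18, against 16.1, 14.1 and 15.2 CPM in wild type. MCM2, a subunit of the replicative helicase, had 52.5, 42.2 and 36.3 CPM in link1link2 at ZT2, against 34.7, 35.1 and 29.9 CPM in wild type, and 14.9, 14.4 and 11.6 CPM in link1link2 at ZT18, against 16.1, 19.6 and 21.1 CPM in wild type. RPA70B, which binds single-stranded DNA, averaged 19.0 CPM in link1link2 and 14.1 CPM in wild type at ZT2, and 4.12 CPM in link1link2 and 6.97 CPM in wild type at ZT18.

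The helicase subunits MCM3 and MCM6, the primase subunit POLA3 and the MCM-binding protein ETG1 were also members. Further subunits missed the rule narrowly: MCM5 had an R of 2.89 in link1link2 and 1.68 in wild type, and PRL, the MCM7 subunit, 3.22 in link1link2 and 2.01 in wild type. CDC45, which activates the helicase, stayed nearly flat, with an R of 1.34 in link1link2 and 1.22 in wild type. CDKB2;1, a mitotic cyclin-dependent kinase, averaged 14.3 CPM in link1link2 and 19.1 CPM in wild type at ZT2, and 26.7 CPM in link1link2 and 27.0 CPM in wild type at ZT6. The list of 13 dividing-cell markers, which includes the members PCNA1 and MCM2 and has none at 0, summed to 236 CPM in link1link2 (206 to 289) and 257 CPM in wild type (245 to 272) at ZT2, and to 221 CPM in link1link2 (213 to 233) and 245 CPM in wild type (237 to 251) at ZT18. Its part in the result was not tested, and in whole seedlings fewer cells of a type and less RNA per cell cannot be told apart.

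Sites of the E2F family, searched as TTTCCCGC, TTTGGCGC, TTTCGCGC and TTTGCCGC on both strands, were found in 7.14% of member promoters and in 2.497% of all 32834 promoters. All 8 members with a site were in the ZT2 class, and 5 of them were among the 8 replication genes. Of all 22 replication genes, members or not, 11 had a site, so the site was not particular to the members. This search was added after the replication genes had been seen, and a match describes letters and not binding.

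Other members highest at ZT2 were genes of lipid synthesis, indole metabolism and signalling. KCS2, which elongates fatty acids to very long chains for suberin and cuticle, had 47.2, 55.7 and 66.4 CPM in link1link2 at ZT2, against 30.1, 37.3 and 40.6 CPM in wild type, and 10.7, 7.32 and 8.33 CPM in link1link2 at ZT22, against 20.5, 17.56 and 21.4 CPM in wild type. GPAT3, a glycerol-3-phosphate acyltransferase, averaged 12.5 CPM in link1link2 and 25.9 CPM in wild type at ZT18. ARF11, an auxin response factor, averaged 29.7 CPM in link1link2 and 18.0 CPM in wild type at ZT2, and 8.33 CPM in link1link2 and 14.0 CPM in wild type at ZT18. NDB2, an alternative NAD(P)H dehydrogenase of mitochondria, averaged 38.8 CPM in link1link2 and 29.6 CPM in wild type at ZT2. With TMM factors 10 of the 33 members of this class met the rule, ARF11 and NDB2 among them.

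Genes highest at ZT6 and ZT10 in link1link2 mostly had a deeper night minimum than in wild type. NAS1, which makes the metal chelator nicotianamine, had the deepest minimum relative to wild type: 12.3, 13.2 and 11.2 CPM in link1link2 at ZT22, against 72.9, 54.1 and 49.8 CPM in wild type. At ZT6 it had 101, 88.6 and 92.1 CPM in link1link2 and 91.2, 76.4 and 80.7 CPM in wild type, where the genotypes overlapped. COPT2, a copper transporter, had 11.9, 10.6 and 6.85 CPM in link1link2 at ZT22, against 29.7, 21.8 and 19.6 CPM in wild type, and 37.5, 40.8 and 29.4 CPM in link1link2 at ZT10, against 21.2, 16.4 and 27.7 CPM in wild type. Both met the rule with TMM factors and with each single library left out. They were the only 2 members among 26 measured genes of the list of iron and metal homeostasis, whose median R was 2.46 in link1link2 and 2.49 in wild type. With TMM factors the medians of the list were 2.63 in link1link2 and 2.18 in wild type. The larger range was then in link1link2 in 12 of the 26.

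Glucosinolates are sulfur-rich defence compounds of the cabbage family, and 4 of 27 measured genes of the list of glucosinolate and sulfate genes were members. CYP79B2, which converts tryptophan to the precursor of indole glucosinolates, had 168, 160 and 175 CPM in link1link2 at ZT10, against 114, 97.4 and 118 CPM in wild type. At ZT22 it had 30.5, 43.3 and 36.02 CPM in link1link2 and 58.1, 71.8 and 64.6 CPM in wild type. CYP83B1, the next enzyme of that branch, averaged 246 CPM in link1link2 and 147 CPM in wild type at ZT2, and 69.9 CPM in link1link2 and 118 CPM in wild type at ZT18. At these times both enzyme genes were higher in link1link2 by day and lower by night.

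MYB34, a transcriptional activator of the indole branch, had 93.8, 89.7 and 108 CPM in link1link2 at ZT14, against 117, 90.6 and 114 CPM in wild type, and 31.3, 29.8 and 31.5 CPM in link1link2 at ZT22, against 57.1, 57.9 and 53.4 CPM in wild type. CYP79F2, of the aliphatic branch, averaged 31.4 CPM in link1link2 and 18.8 CPM in wild type at ZT10, and 5.54 CPM in link1link2 and 11.8 CPM in wild type at ZT22. Over the list, 24 of 27 genes had the larger range in link1link2, with medians of 4.53 in link1link2 and 3.04 in wild type, and 25 of 27 with TMM factors. For the 4 members the rule fixed the order with column totals. Over all 14524 measured genes the counts were 7705 with column totals and 9053 with TMM factors. Only MYB34 of the 4 members still met the rule under that scaling, since wild-type R was then 2.18 for CYP79B2, 2.31 for CYP83B1 and 2.21 for CYP79F2. Most list genes missed the rule because they already varied in wild type, such as the regulator MYB29, with an R of 16.2 in link1link2 and 6.38 in wild type. Within a group of 9 indole genes, assembled after the members had been seen, CYP79B3 did not share the pattern with column totals: its R was 1.38 in link1link2 and 1.61 in wild type. With TMM factors all 8 measured genes of the group, CYP79B3 among them, had the larger range in link1link2.

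Suberin, the waxy polyester of the root endodermis, was represented by 5 of 10 measured genes of another group assembled after the members had been seen: KCS2, CYP86B1, FAR1, FAR5 and RWP1. They did not share a phase. CYP86B1, a hydroxylase of very-long-chain fatty acids, had 16.1, 14.8 and 14.7 CPM in link1link2 at ZT10, against 11.9, 9.84 and 14.6 CPM in wild type, and 3.77, 2.02 and 2.48 CPM in link1link2 at ZT22, against 9.36, 8.72 and 7.09 CPM in wild type. FAR5, like FAR1 a fatty acid reductase, had 3.52, 4.35 and 3.18 CPM in link1link2 at ZT22, against 9.36, 9.08 and 9.52 CPM in wild type. FAR5 and CYP86B1 were thus lowest in link1link2 at ZT22, the time at which FAR1 was highest. RWP1, a feruloyl transferase, averaged 13.3 CPM in link1link2 and 21.3 CPM in wild type at ZT22. With TMM factors 2 of the 5 met the rule, CYP86B1 and FAR5.

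Root markers also differed between the genotypes at these times, in the direction of CYP86B1 and FAR5 at ZT22 and opposite to FAR1. The summed level of 17 root markers, none at 0, was 181 CPM in link1link2 (172 to 187) and 211 CPM in wild type (189 to 225) at ZT22, and 216 CPM in link1link2 (208 to 223) and 189 CPM in wild type (176 to 198) at ZT10. Among root-hair markers PRP3 averaged 1.31 CPM in link1link2 at ZT22, against 4.71 CPM in wild type, and EXPA18 0.879 CPM in link1link2, against 2.94 CPM in wild type. CASP1, a marker of the endodermis, averaged 25.3 CPM in link1link2 and 26.1 CPM in wild type at ZT22. The part of these markers in the result was not tested.

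The remaining genes of the ZT6 class had minima at night that were only moderately deeper. PELPK1, a proline-rich cell-wall protein, averaged 32.2 CPM in link1link2 and 67.5 CPM in wild type at ZT22, and EULS3, a lectin, 5.42 CPM in link1link2 and 8.97 CPM in wild type. AOP1 averaged 3.57 CPM in link1link2 and 6.09 CPM in wild type at ZT22. GT72B1, a glucosyltransferase, averaged 141 CPM in link1link2 and 77.3 CPM in wild type at ZT6, and 43.2 CPM in link1link2 and 64.7 CPM in wild type at ZT22. Lhca6, a light-harvesting protein of photosystem I, was the only light-harvesting gene among the members, with 46.8 CPM in link1link2 and 94.2 CPM in wild type at ZT22. Over the 15 measured light-harvesting genes the median R was 3.12 in link1link2 and 7.78 in wild type, the opposite order to Lhca6. With TMM factors wild-type R was 2.21 for EULS3, 2.28 for AOP1, 2.23 for GT72B1 and 2.07 for Lhca6. These genes then no longer met the rule, while PELPK1 did.

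Of the 4 members highest at ZT14, MYB34 was described above and the others differed more between link1link2 libraries at that time. EARLI1, a lipid-transfer-like protein known from cold and defence responses, had 330.2, 117 and 61 CPM in link1link2 at ZT14, against 7.31, 23.7 and 15.7 CPM in wild type, and 25.8, 19.6 and 29.7 CPM in link1link2 at ZT22, against 13.3, 11.9 and 10.9 CPM in wild type. It was higher in every link1link2 library at both times, and its link1link2 mean exceeded the wild-type mean at every time of the day. Its link1link2 libraries at ZT14 were far apart. They also differed widely at ZT6 (mean 45.1 CPM, SD 30.1) and ZT10 (mean 56.3 CPM, SD 53.1). ATPMEPCRB, a pectin methylesterase, had 17.8, 10.3 and 5.64 CPM in link1link2 at ZT14, against 4.14, 6.61 and 5.31 CPM in wild type, so the genotypes overlapped, and without link1link2 library A of that time it left the rule. AT2G16005, a lipid-recognition protein, had 21.6, 28.4 and 49.5 CPM in link1link2 at ZT14, against 16.5, 16.3 and 13.3 CPM in wild type, with no overlap.

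Beyond these groups the members were spread thinly. Of 21 gene lists, 7 held at least 1 member and 14 none, among them the lists of dawn and evening clock genes, of cold response, of flavonoid synthesis and of light signalling. The clock genes varied in both genotypes, with a median R of 28.1 in link1link2 and 81.7 in wild type for 9 dawn genes, all with the smaller range in link1link2, and of 11.1 in link1link2 and 30.7 in wild type for 14 evening genes, of which 4 had the larger range in link1link2. By words in the product name, cytochrome P450 genes held 5 members (5.56% of those measured), cell-wall proteins 5 (2.99%), glycosyltransferases 3 (2.31%) and genes of lipid metabolism 5 (2.21%), against 0.771% of all measured genes. Ribosomal proteins, RNA-binding proteins and heat-shock proteins held none. There were 110 protein-coding members, the precursor of the microRNA miR163 and 1 other noncoding RNA, and none was encoded in an organelle.

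The members lay on all 5 chromosomes, with 33, 11, 24, 21 and 23 on chromosomes 1 to 5, and no 2 were neighbours. Near the mutated genes were AT3G54580, an extensin-like gene 25.2 kb from LNK2, AT3G54880, 161 kb from LNK2, and OPT4, 78.4 kb from LNK1. Whether reads were counted by strand is not given, and 27 members overlap another counted locus. In 17 of them that locus held at least 50% as many counts over its whole length. Among these were BCAT-2, KCS2, ETG1, HIR2, ETFQO, BCDH BETA1, UGE3, BAM4, AOP1 and RWP1, and the values of these genes are uncertain. The shared stretch can be short, with 41 bases in KCS2 and 49 bases in ETG1.

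Of 12 motifs searched on both strands of the 300-base promoter windows, most were about as frequent in members as in all promoters. The evening element (AAAATATCT) was in 3.57% of member promoters and 2.61% of all, the CCA1-binding site (AAAAATCT) in 9.82% and 7.33%, the G-box (CACGTG) in 7.14% and 6.90%, the ABRE (ACGTGTC) in 5.36% and 3.94%, and the CACATG element in 11.6% and 12.7%. The heat-shock element (GAANNTTC) was in 17.9% of member promoters and 11.3% of all, and the protein box (ATGGGCC) in 8.93% and 7.24%. The telo-box (AAACCCT) was in 4.46% of member promoters and 10.0% of all, and the morning element (CCACAC) in 4.46% and 7.77%. GATA was in 92.9% and 91.0%, the I-box (GATAAG), which contains it, in 16.1% and 14.97%, and CCAAT in 51.8% and 50.7%. The G-box can share letters with the ABRE, and the evening element read on the other strand contains GATA.

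The continuous-light libraries were not used to choose the members and allow a test of transcript level. They form no time series, so the gained daily range itself could not be tested there. In the edgeR quasi-likelihood test over all genes, 10 of 109 members tested were called at an adjusted p under 0.05, which is 9.17%, against a background of 5.15% of 20158 genes. This background also holds genes below the 10 CPM asked of members, so the shares are not matched for expression level. Of the 10 called members, 8 were higher in link1link2 (background 2.18%) and 2 lower (background 2.98%). The median log2 fold change, link1link2 over wild type, was 0.03 over the members and 0.00 over all genes. The differences were small: 108 of 109 members changed by less than 0.58 on the log2 scale, and the exception, AT5G25260, was not called. In constant light, then, most genes with a gained daily range had levels that did not differ beyond the test's threshold. CYP82C2, AT1G26240 and AT5G44585 had too few counts to be tested.

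FAR1 had the smallest adjusted p, with 37.4, 35.2 and 36.2 CPM in link1link2, against 24.5, 27.4 and 25.5 CPM in wild type, a log2 fold change of 0.52 ± 0.07 (SE, n = 3 per genotype, edgeR adjusted p = 4.7e-05). HIR2, of a family of membrane proteins linked to the hypersensitive response, had 54.99, 47.5 and 44.4 CPM in link1link2, against 40.96, 35.0 and 33.1 CPM in wild type (0.46 ± 0.08, edgeR adjusted p = 0.00124). The lysine-breakdown gene AT4G33150 had 20.2, 23.8 and 22.3 CPM in link1link2, against 17.7, 16.2 and 14.9 CPM in wild type (0.47 ± 0.09, edgeR adjusted p = 0.00256). In all 3 genes the genotypes did not overlap. BLH6, a homeodomain factor of secondary wall formation, had 62.97, 60.1 and 59.8 CPM in link1link2, against 51.2, 52.1 and 51.3 CPM in wild type (0.27 ± 0.06, edgeR adjusted p = 0.00499). These 4 genes were called under each of the 11 other settings tried.

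The other calls depended more on single libraries. AT1G30820, a CTP synthase, rose by 0.34 ± 0.07 (edgeR adjusted p = 0.00549) and AT1G10657, of unknown function, fell by 0.56 ± 0.12 (edgeR adjusted p = 0.00731), and each lost its call without wild-type library B. BGAL1 rose by 0.24 ± 0.06 (edgeR adjusted p = 0.028), KTI1 by 0.42 ± 0.11 (0.0318) and AT2G16005 by 0.48 ± 0.13 (0.0386), while COPT2 fell by 0.26 ± 0.07 (0.0272). BGAL1 lost its call without wild-type library B or C or link1link2 library A or B, and KTI1 without any 1 wild-type library or link1link2 library A. AT2G16005 lost its call without library B or C of either genotype, and COPT2 without any 1 wild-type library or link1link2 library B or C. KTI1, AT2G16005 and COPT2 were also not called by DESeq2. In total, 4 members were called without wild-type library B and 6 without wild-type library C.

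**Figure D5:**
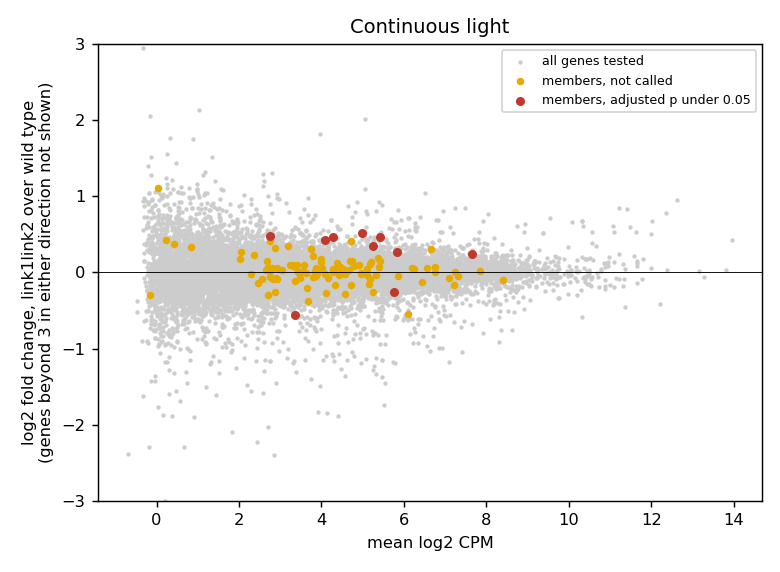
Log2 fold change in continuous light, link1link2 over wild type (y axis), against mean log2 CPM (x axis) for all genes tested (grey) and the 109 members tested (yellow, not called; red, adjusted p under 0.05). The members lie close to 0, and the 10 called ones are between -0.56 and 0.52.

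The shares over all genes tested, against which the following counts are to be read, were 2.18% called higher and 2.98% called lower. By class, the members highest at ZT18 in long days had a median log2 fold change of 0.24 in continuous light, and 4 of 13 tested were called higher, namely AT4G33150, AT1G30820, BGAL1 and HIR2. In the ZT2 class the median was 0.02 with 1 of 33 called higher, a share near that of all genes, and in the ZT22 class 0.06 with 2 of 26 called higher. BCAT-2, at 1.01, 1.51 and 0.931 CPM in link1link2 and 0.873, 1.097 and 0.611 CPM in wild type, was barely expressed in continuous light, and its log2 fold change of 0.42 ± 0.35 was not called (edgeR adjusted p = 0.627). None of the 22 replication genes was called in either direction, at a median log2 fold change of 0.05. Of 15 genes of branched-chain amino acid and lysine breakdown only AT4G33150 was called higher, at a median of 0.07. In the glucosinolate list 6 of 27 were called higher and none lower, at a median of 0.14, but CYP79B2, CYP83B1, CYP79F2 and MYB34 were not among them.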

How the data were processed

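Each experiment came as 1 table of whole-number read counts per gene, which the authors deposited unnormalized. Libraries were made from poly(A) RNA with random hexamers, per the labels' protocols, and no strand setting is stated. Reads were placed on TAIR10, per the submitters' processing notes. Which aligner and counter were used is not given in the sources used here.

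Wild-type columns bear the ecotype's name, and link1link2 columns were recognised as the remaining ones, under a name absent from the labels. The letters A, B and C match no replicate number. Counts of replicate libraries differed by more than sampling noise, so each was 1 sample.

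CPM, R and the rule were computed from the deposited counts with Python 3.11.15 over column totals. Continuous light was fitted with edgeR 4.0.16 in R 4.3.3: TMM factors, filterByExpr, robust quasi-likelihood test, Benjamini-Hochberg adjustment over all 20158 genes tested. In counts simulated for that comparison (20058 genes), 94.9% of 2-fold and 99.0% of 4-fold changes were recovered. Of 205 genes called there, 14 were unchanged ones. Smaller changes, such as those of nearly all members, were not simulated, so their recovery is not known. DESeq2 1.42.0 was an alternative.

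Symbols, overlaps and promoters came from RefSeq TAIR10.1, in which 32835 of 33602 loci and all 112 members matched by locus tag. The members, the lists and the 17 families of product words were chosen with earlier results of these data known, and 4 pathway groups after the members had been seen. Named were, per class, the 5 members with a symbol and the largest ratio of ranges, the members called in continuous light, the members on lists and the genes next to each limit. Other genes were named after their values had been seen. Marker lists and the count of libraries rich in chloroplast counts served as checks.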

Additional observations from a re-analysis of the deposited data

Results flagged for a closer look

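In 86 of the 112 members all 3 link1link2 libraries lay above all 3 wild-type libraries at one time of day and below all 3 at another, against 39.5% of genes of at least 10 CPM. It was singled out because the difference between genotypes pointed in opposite directions at different times. This difference was not tested, since the same long-day libraries chose the members. DUT1 is an example, with means of 48.3 CPM in link1link2 and 31.0 CPM in wild type at ZT2, and 10.6 CPM in link1link2 and 16.7 CPM in wild type at ZT18.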

How the results depend on the processing

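Limits other than those of the rule were tried 1 at a time. A link1link2 R of at least 2.5 gave 375 genes and of at least 4 gave 34, and a wild-type R under 2.5 gave 359 and under 1.5 gave 3. With TMM factors 21 genes were highest at ZT2 and 27 at ZT6. The class highest at ZT14 held 8 genes with the median of 3 libraries, 7 with 0.1 CPM added and 8 with 1 CPM added, and the last left 3 genes changed on both sides. Without the libraries of over 2% chloroplast counts 49 genes had only the higher maximum and 44 were highest at ZT22. The latter setting left only library B for link1link2 at ZT22. The cause of these shifts was not tested.

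When each long-day library was left out in turn, 96 to 129 genes met the rule, with 92 of the members among the 96 left without wild-type ZT2 library C. The classes held 26 to 39 (ZT2), 13 to 25 (ZT6, most without link1link2 ZT6 library B), 14 to 21 (ZT10), 3 to 9 (ZT14, most without link1link2 ZT14 library B), 12 to 20 (ZT18) and 24 to 34 (ZT22) genes.

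In continuous light, leaving out 1 library gave 657 to 929 genes called, 4 to 10 members called, 4 to 8 higher and 0 to 2 lower. DESeq2 called 692 genes, with 1 member lower. With a replicate block by column letter, 1888 genes and 17 members were called, 6 of them lower. The deviations of same-letter libraries correlated at 0.133 (A), 0.0508 (B) and 0.103 (C), each letter best with itself, which is a hint from the data and not the design, so the letters were not used to pair samples. Near 0, the log2 fold change of MCM2 (-0.01) ran from -0.053 to 0.032 and that of CYP79B2 (0.01) from -0.036 to 0.056 with 1 library left out, changing sign. Searching the forward strand alone raised the excess of GATA in member promoters to 7.15 percentage points.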

Other observations

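A further feature of the data was the phase in which each genotype's own range was large. Among 1677 genes of at least 10 CPM with a link1link2 R of at least 3, 28.1% were highest at ZT2 and 28.6% at ZT22, while 8.88% were highest at ZT10. Among 1510 genes with a wild-type R of at least 3, 23.6% were highest at ZT2, 16.6% at ZT22 and 21.1% at ZT10. The flavonoid and phenylpropanoid list held no member but had the larger range in link1link2 in 17 of 19 measured genes, against 7705 of all 14524. The medians were 4.87 in link1link2 and 3.11 in wild type. In continuous light 20 of the 25 tested genes of the list were lower in link1link2 by the edgeR quasi-likelihood test, against 2.98% of all genes tested.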
